A study of Homo sapiens with 6 samples.

Results

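The genes described here are 10 structural and cross-linking genes of the cornified envelope: IVL, SPRR1A, SPRR1B, SPRR2A, SPRR2D, SPRR3, TGM1, CNFN, CSTA and SBSN. They were taken from the table by gene symbol, and all 10 were found among the 16809 genes of the deposited table. The cells were CAL-27, an established line from a human squamous cell carcinoma of the tongue. The controls were untreated CAL-27 cells, and the other group, called ES-Cu, was the same line exposed for 24 h to elesclomol and copper at a ratio of 1 to 1, with 3 libraries in each group. Elesclomol is an ionophore that carries copper into cells, and the study used it to trigger cuproptosis, a copper-dependent form of cell death. The sources used here give no doses, and a single line limits what the groups stand for.

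The cornified envelope is the sheath of cross-linked protein that replaces the plasma membrane of keratinocytes at the end of their differentiation. Involucrin (IVL) is laid down early as a scaffold, small proline-rich proteins (SPRR) act as bridges between other precursors, and transglutaminases join them through covalent bonds between glutamine and lysine. Stratified squamous epithelium of the mouth makes many of these proteins, and squamous carcinomas keep them to a varying degree.

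The values were TPM, a share of all transcripts that is corrected for gene length and can therefore be compared between genes. Read totals cannot be had from TPM, and the depth behind each value is therefore unknown. Between 14959 and 15051 genes lay above 0 in each library. Pearson's r between libraries was taken on log2(TPM + 1) over the genes averaging 1 TPM or more, which are no independent replicates. It was 0.994 to 0.995 inside a group and 0.937 to 0.939 from one group to the other. Separate cultures are not stated in the labels, and p-values then cover only the spread of these libraries, which may be technical. The difference between groups (ES-Cu minus control) was tested on log2(TPM + 1) with limma for the 11927 genes averaging 1 TPM or more. A difference on this scale understates the change of genes at low levels. The median tested gene was lower by 0.50 on the log2 scale in ES-Cu (log2 fold change -0.50). It was at 0.00 after scaling each library by its median ratio to a reference and at -0.07 after quantile normalization, which gives every library the same distribution. A gene is said to have risen or fallen here only if its adjusted p was under 0.05 with one sign on the deposited scale and under both of these scalings. Where 3 log2 fold changes stand in a parenthesis, they are from the deposited values, after median-of-ratios scaling and after quantile normalization, in that order.

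Of the 10 genes, CNFN fell, to 0.252 times its control level, and no other passed that criterion. CSTA was by far the most abundant, at 98.2 TPM in the controls and 85.4 TPM in ES-Cu. SPRR1A, SPRR1B and TGM1 were not called after median-of-ratios scaling or quantile normalization. A further 5 genes (IVL, SPRR2A, SPRR2D, SPRR3 and SBSN) were under 1 TPM on average and did not enter the main test. They were fitted only in the settings without this filter, whose calls are given with the dependence on the processing. On the deposited scale, limma called 4 of the 5 tested genes lower (CSTA, SPRR1B, CNFN and TGM1), where 70.0% of all tested genes were called lower. It called 0 higher, against 13.6% of all tested genes, so that 4 of 5 were called in either direction, against 83.7%. Under the criterion of 3 scalings, 1 gene was lower and 0 were higher, beside 31.2% and 13.5% of all tested genes, or 44.7% in either direction. Groups did not overlap for CSTA, CNFN and TGM1 among the tested genes, nor for 84.3% of all tested genes. They did not overlap for SPRR2D, which was under the filter of the main test.

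**Figure D1:**
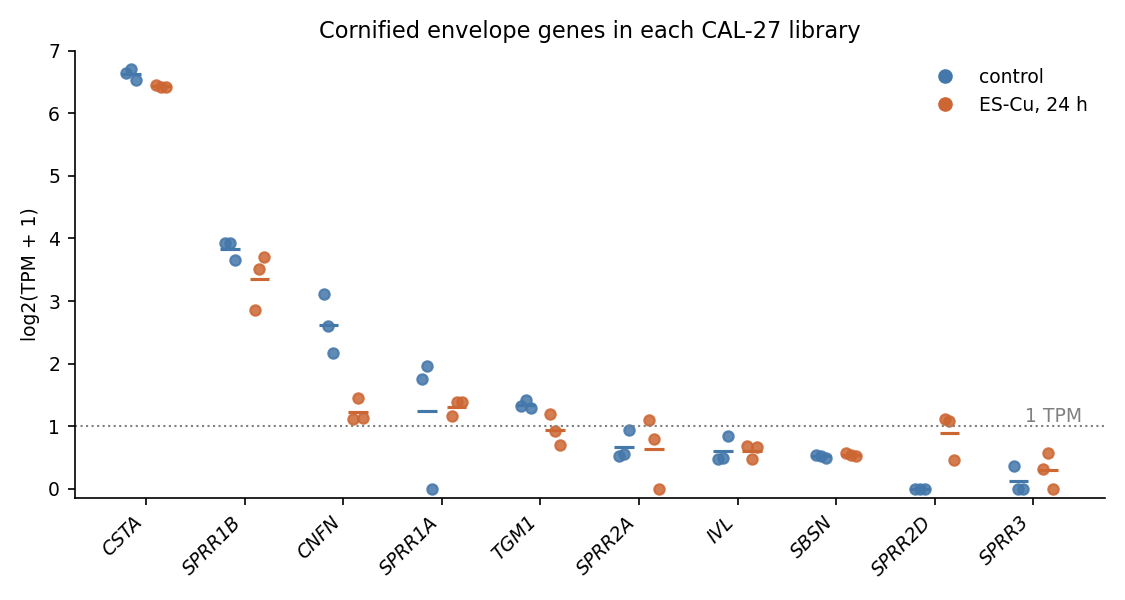
Level of the 10 cornified envelope genes in each library, as log2(TPM + 1) on the vertical axis, with 1 point per library (control in blue, ES-Cu in orange) and a bar at the group mean. CSTA sits far above the others, CNFN is the tested gene with the widest gap between groups, and 5 genes average under 1 TPM, the level marked by the dotted line.

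In the control libraries the mean levels per transcript length ran from CSTA at 98.2 TPM through SPRR1B at 13.3 and CNFN at 5.39 to SPRR1A at 1.77 and TGM1 at 1.54. SPRR2A, IVL and SBSN followed at 0.607, 0.530 and 0.430 TPM, SPRR3 averaged 0.0967 TPM, and SPRR2D was listed at 0. In ES-Cu the order was CSTA at 85.4 TPM, SPRR1B at 9.55, SPRR1A at 1.48, CNFN at 1.36, TGM1 at 0.943 and SPRR2D at 0.887, followed by SPRR2A, IVL, SBSN and SPRR3 at 0.623, 0.523, 0.460 and 0.243 TPM. There, CSTA and SPRR1B stood apart, and each later gene overlapped with the next. In the controls the libraries of CSTA, SPRR1B and CNFN did not overlap with those of the next gene in this order. Those of SPRR1A overlapped with those of TGM1, and the libraries of SPRR2A, IVL and SBSN overlapped with one another. The 10 genes summed to 126.73, 128.75 and 110.21 TPM in the controls and to 100.34, 102.57 and 101.38 TPM in ES-Cu. That is 122 ± 10.2 against 101 ± 1.12 TPM (SD, n = 3 in each group), with p = 0.1 in an exact two-sided permutation test, the smallest that 3 against 3 libraries allow. The difference of -20.5 TPM was -9.80 TPM with the 20 highest genes of the table removed. It was not computed after median-of-ratios scaling or quantile normalization. CSTA, most of the sum, changed sign with the scaling, as given below. CSTA made up 80.7% ± 2.28 of this sum in the controls and 84.2% ± 2.03 in ES-Cu, and the exact permutation test of that difference gave p = 0.2. Without CSTA the sum was 23.7 ± 4.45 against 16.1 ± 2.22 TPM, with no overlap between groups and an exact permutation p = 0.1.

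CNFN encodes cornifelin, a small cysteine-rich protein of the envelope. It stood at 7.63, 5.05 and 3.49 TPM in the controls and at 1.17, 1.73 and 1.18 TPM with ES-Cu. The lowest control library was above every ES-Cu library, although the controls themselves spread over more than the gap between the groups. The means were 5.39 ± 2.09 and 1.36 ± 0.320 TPM, a ratio of 0.252. The log2 fold change was -1.39 ± 0.21 (SE), with a limma adjusted p of 6.88e-05. After median-of-ratios scaling it was -1.0 (limma adjusted p = 0.00183) and after quantile normalization -0.78 (limma adjusted p = 0.00944). On the deposited scale the call held without each library in turn, and single libraries were not left out under the other scalings. As a share of the 10 genes, CNFN was 4.37% ± 1.48 in the controls and 1.34% ± 0.301 in ES-Cu, with no overlap (exact permutation p = 0.1). A single factor per library leaves this share unchanged, whereas quantile normalization does not.

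CSTA encodes cystatin A, a cytosolic inhibitor of cysteine proteases that is also cross-linked into the envelope. It stood at 99.44, 103.65 and 91.49 TPM in the controls and at 86.76, 84.75 and 84.56 TPM with ES-Cu. Every ES-Cu library was below every control on the deposited scale, by a small margin. The log2 fold change there was -0.20 ± 0.052 (SE, limma adjusted p = 0.00387), but the sign turned after median-of-ratios scaling, to 0.35 (limma adjusted p = 1.29e-04). Quantile normalization gave 0.084 (limma adjusted p = 0.166). CSTA held ranks 1494 to 1687 among all genes in the controls and 1476 to 1500 in ES-Cu, where rank 1 is the highest TPM. CSTB, its ubiquitous relative cystatin B, was at 196 ± 1.52 and 152 ± 17.0 TPM. The ratio of CSTA to CSTB was 0.502 ± 0.0280 in the controls and 0.567 ± 0.0711 in ES-Cu, with overlapping libraries (exact permutation p = 0.3).

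**Figure D2:**
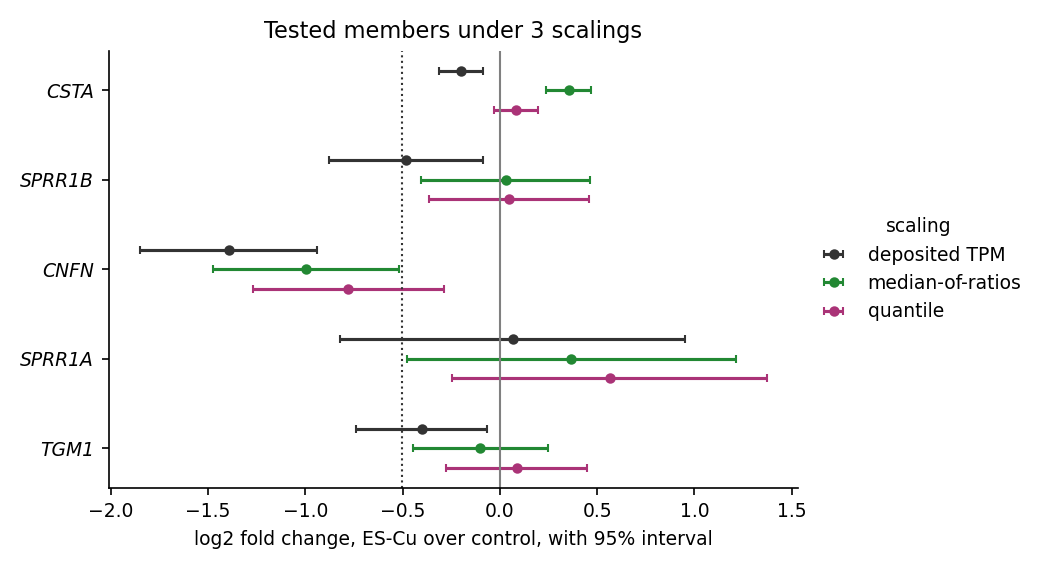
Log2 fold change of the 5 tested genes, ES-Cu over control, on log2(TPM + 1), with its 95% interval from limma, under 3 scalings shown by colour. The dotted line marks the median of all tested genes on the deposited scale (-0.50). CNFN stays below 0 throughout, CSTA changes side, and the intervals of SPRR1B, SPRR1A and TGM1 include 0 after median-of-ratios scaling and after quantile normalization.

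The SPRR1 pair, SPRR1A and SPRR1B, encodes proline-rich cross-bridging proteins that are known to be induced early in squamous differentiation and by stress. SPRR1B stood at 14.20, 14.15 and 11.67 TPM in the controls and at 6.23, 10.41 and 12.01 TPM with ES-Cu. The third ES-Cu library lay above the lowest control, so the groups overlapped. The log2 fold change was -0.48 ± 0.18 (SE, limma adjusted p = 0.0269), close to that of the median gene, and it was 0.03 and 0.05 under the other scalings (limma adjusted p = 0.893 and 0.828). The call was lost without control 1, control 2 or ES-Cu 1, and without ES-Cu 1 the log2 fold change was -0.23 (limma adjusted p = 0.070). SPRR1A stood at 2.39, 2.91 and 0 TPM in the controls and at 1.24, 1.60 and 1.61 TPM with ES-Cu, so that 1 control listed at 0 set the width of that group. Its log2 fold change was 0.07 with a 95% interval from -0.82 to 0.95 (limma adjusted p = 0.882). Without control 3 the sign turned, to -0.56 (limma adjusted p = 0.00551). The pair summed to 15.1 ± 2.99 and 11.0 ± 3.19 TPM (exact permutation p = 0.3).

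The stretch of 250 bases upstream of the SPRR1B start is shown with that of CNFN, the gene that fell, because the motif most shared among these promoters is present in one and not in the other. They come from RefSeq on GRCh38.p14, and a promoter was found there for 7 of the 10 genes (IVL, SPRR1A, SPRR1B, SPRR2A, SPRR3, CNFN and SBSN). Capitals mark matches to TGANTCA on either strand, the letters bound by AP-1, the family of dimers of JUN and FOS proteins. The SPRR1B stretch is chr1:153030953-153031202 on the plus strand and the CNFN stretch is chr19:42390298-42390547 on the minus strand.
SPRR1B: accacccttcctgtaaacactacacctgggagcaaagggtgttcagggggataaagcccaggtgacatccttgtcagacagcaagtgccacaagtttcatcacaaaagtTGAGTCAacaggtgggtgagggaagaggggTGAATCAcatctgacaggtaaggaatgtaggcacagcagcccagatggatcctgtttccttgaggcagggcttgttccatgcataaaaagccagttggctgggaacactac
CNFN: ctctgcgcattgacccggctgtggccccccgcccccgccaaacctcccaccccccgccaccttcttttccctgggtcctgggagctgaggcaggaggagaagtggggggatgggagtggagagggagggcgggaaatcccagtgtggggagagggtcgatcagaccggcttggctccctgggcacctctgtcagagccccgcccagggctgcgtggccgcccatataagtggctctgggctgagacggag

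TGANTCA occurred in 6 of these 7 promoters (IVL, SPRR1A, SPRR1B, SPRR2A, SPRR3 and SBSN) and in 6.60% of all 27305 promoters searched over the same length. SPRR1B and SBSN each held it at 2 places. TATAAA was found in 4 of 7, with 11.1% overall. GAANNTTC, a pair of heat shock factor half-sites, was found in 0 of 7 and in 5.85% overall. TGCNCNC, a looser form of the metal response element core TGCRCNC (R is A or G), was found in 3 of 7 and in 48.4% overall. The matches in SPRR3, SPRR1B and SBSN all held C or T at R, so the core itself was not among them. TGACNNNGC, the antioxidant response element, was found in CNFN only and in 11.0% overall. A match is a description of letters and no evidence of binding, and both strands were searched, with no overlap between motifs removed.

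TGM1 encodes keratinocyte transglutaminase, the membrane-bound enzyme that cross-links the envelope. It stood at 1.5, 1.68 and 1.45 TPM in the controls and at 1.30, 0.90 and 0.63 TPM with ES-Cu. The highest ES-Cu library came within a small step of the lowest control, without overlap. The log2 fold change was -0.40 ± 0.15 (SE, limma adjusted p = 0.0295) in the deposited values, -0.10 after median-of-ratios scaling (limma adjusted p = 0.576) and 0.09 after quantile normalization (limma adjusted p = 0.646). The call was lost without control 1, control 2, ES-Cu 2 or ES-Cu 3, with limma adjusted p between 0.051 and 0.129. Of 8 other transglutaminase genes listed, 7 were in the table and 1 was tested. That gene, TGM2, the widely expressed tissue transglutaminase, fell from 33.6 ± 1.86 to 17.5 ± 0.735 TPM (log2 fold change -0.90, -0.37 and -0.48). The ratio of TGM1 to TGM2 was 0.0462 ± 0.00631 and 0.0540 ± 0.0191 (exact permutation p = 0.6).

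SPRR2A and SPRR2D belong to a family of near-identical copies. Their coding sequences are printed here with that of SPRR2E, a neighbour outside the 10 genes, because SPRR2D was listed at 0 in every control and SPRR2E at 0 in every ES-Cu library. They were read from the GENCODE transcripts of release 29 without the stop codon, and each is 216 bases long. Capitals in SPRR2D and SPRR2E mark the bases at which these 2 differ, and capitals in SPRR2A mark those at which it differs from SPRR2D.
SPRR2D: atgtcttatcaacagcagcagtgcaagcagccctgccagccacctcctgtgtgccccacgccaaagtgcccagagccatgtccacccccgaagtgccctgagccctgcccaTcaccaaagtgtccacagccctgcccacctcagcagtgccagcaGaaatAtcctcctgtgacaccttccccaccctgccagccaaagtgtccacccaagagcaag
SPRR2E: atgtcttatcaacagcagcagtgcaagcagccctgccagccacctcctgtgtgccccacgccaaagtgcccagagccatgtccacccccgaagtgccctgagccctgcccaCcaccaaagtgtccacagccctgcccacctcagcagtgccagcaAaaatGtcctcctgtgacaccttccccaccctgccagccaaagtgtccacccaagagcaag
SPRR2A: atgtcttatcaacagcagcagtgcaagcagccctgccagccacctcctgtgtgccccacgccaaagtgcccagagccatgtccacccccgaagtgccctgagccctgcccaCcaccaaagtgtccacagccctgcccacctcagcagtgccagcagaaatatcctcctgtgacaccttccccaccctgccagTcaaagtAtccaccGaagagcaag

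SPRR2D and SPRR2E differed at 3 of 216 bases (98.6% identity), with an identical run of 111 bases, longer than the sequencing reads of 50 bases. SPRR2A and SPRR2D differed at 4 bases (98.1% identity). Over whole transcripts, 32.7% of the stretches of 50 bases in SPRR2A, 19.3% in SPRR2D and 23.4% in SPRR2E also occurred in another gene. The share was 11.3% in SPRR1A and 4.38% in SPRR1B, and it was 0 in IVL, SPRR3, TGM1, CNFN, CSTA and SBSN. How reads that match several copies were counted was not given in the sources used here, so values of single SPRR2 copies are uncertain.

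SPRR2D was listed at 0 in all controls and at 1.16, 1.12 and 0.38 TPM with ES-Cu. SPRR2E showed the opposite, at 1.36, 0.46 and 0.45 TPM in the controls and at 0, 0 and 0 with ES-Cu. No fold is given against a group at 0. Among the 4882 genes with a mean under 1 TPM, 2.27% were at 0 in every control and above 0 in every ES-Cu library, and 1.80% the reverse. Within ES-Cu, the SPRR2D values were 3.05, 2.95 and 1 times the lowest, and in the controls those of SPRR2E were 3.02, 1.02 and 1 times the lowest. SPRR2A stood at 0.44, 0.47 and 0.91 TPM in the controls and at 1.14, 0.73 and 0 TPM with ES-Cu, with overlapping groups. SPRR2F was above 0 in 1 library only, at 0.75 TPM in ES-Cu 2. Summed over the copies, SPRR2 was at 1.80, 0.93 and 1.36 TPM in the controls and at 2.30, 2.60 and 0.38 TPM with ES-Cu. The sums overlapped (1.36 ± 0.435 against 1.76 ± 1.20 TPM, exact permutation p = 0.7), so the order seen in SPRR2D did not extend to the family.

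**Figure D3:**
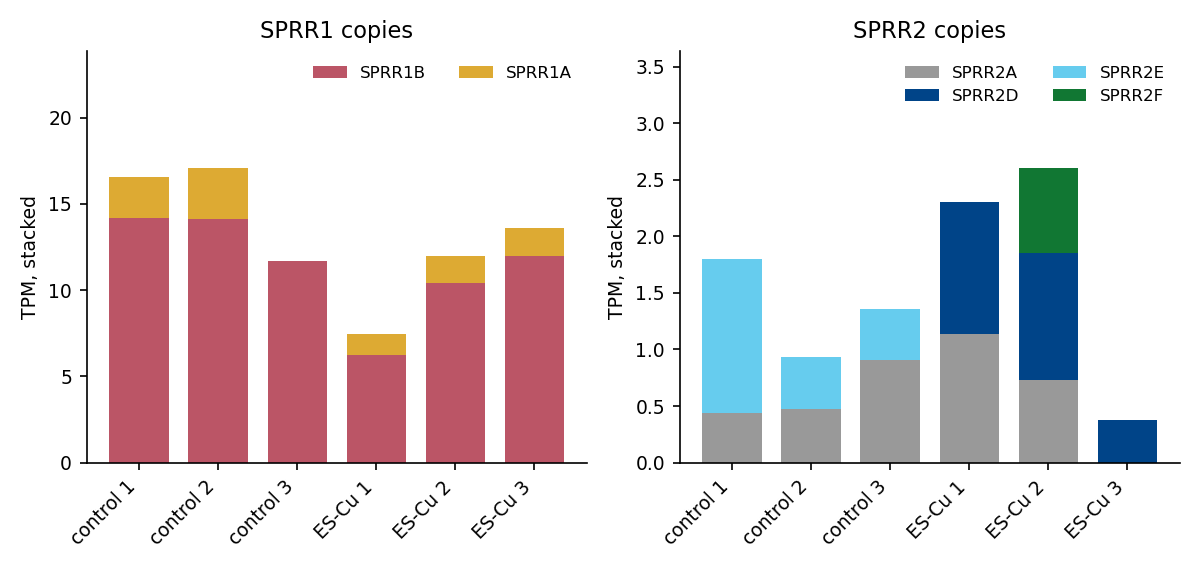
TPM of the SPRR1 copies (left) and SPRR2 copies (right) in each of the 6 libraries, stacked so that the bar height is the sum over copies. SPRR2E appears in the controls alone and SPRR2D in ES-Cu alone, while the SPRR2 sums overlap between groups, from 0.93 to 1.80 TPM in the controls and from 0.38 to 2.60 TPM in ES-Cu.

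The remaining genes were near the lower end of the table. IVL, the classical marker of suprabasal keratinocytes, stood at 0.39, 0.40 and 0.80 TPM in the controls and at 0.60, 0.39 and 0.58 TPM with ES-Cu, with overlapping groups. SPRR3, the member of the family abundant in the esophagus, was at 0.29, 0 and 0 TPM in the controls and at 0.25, 0.48 and 0 TPM with ES-Cu. SBSN, suprabasin, a secreted protein of the suprabasal layers, stood at 0.45, 0.44 and 0.40 TPM in the controls and at 0.49, 0.46 and 0.43 TPM with ES-Cu. These libraries overlapped on the deposited scale. As a share of the 10 genes SBSN was 0.353% ± 0.0107 and 0.454% ± 0.0324, without overlap (exact permutation p = 0.1). DMKN, dermokine, encoded beside SBSN and far more abundant, fell from 167 ± 4.66 to 101 ± 4.85 TPM (log2 fold change -0.71, -0.16 and -0.50).

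IVL and the SPRR genes lie in the epidermal differentiation complex on chromosome 1, a cluster that also holds the late cornified envelope (LCE), filaggrin-type and S100 genes. Between S100A10 and S100A1 the RefSeq order lists 63 genes, of which 40 were in the table and 16 tested. Of these, 4 rose (S100A3, S100A7, S100A11 and S100A16) and 1 fell (S100A4), with a median log2 fold change (0.05, 0.51 and 0.20) to be set beside that of all tested genes (-0.50, 0.00 and -0.07). Over all tested genes, 13.5% rose and 31.2% fell. S100A7, psoriasin, rose from 7.85 ± 2.82 to 17.9 ± 6.12 TPM (log2 fold change 1.09, 1.59 and 1.60), and S100A4 fell from 112 ± 6.04 to 48.8 ± 4.89 TPM (-1.19, -0.64 and -0.90). S100A6, the most abundant, was at 5452 ± 322 and 3735 ± 113 TPM and did not meet the criterion. Apart from S100 genes, 24 of 47 were in the table and only SPRR1A and SPRR1B were tested.

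**Figure D4:**
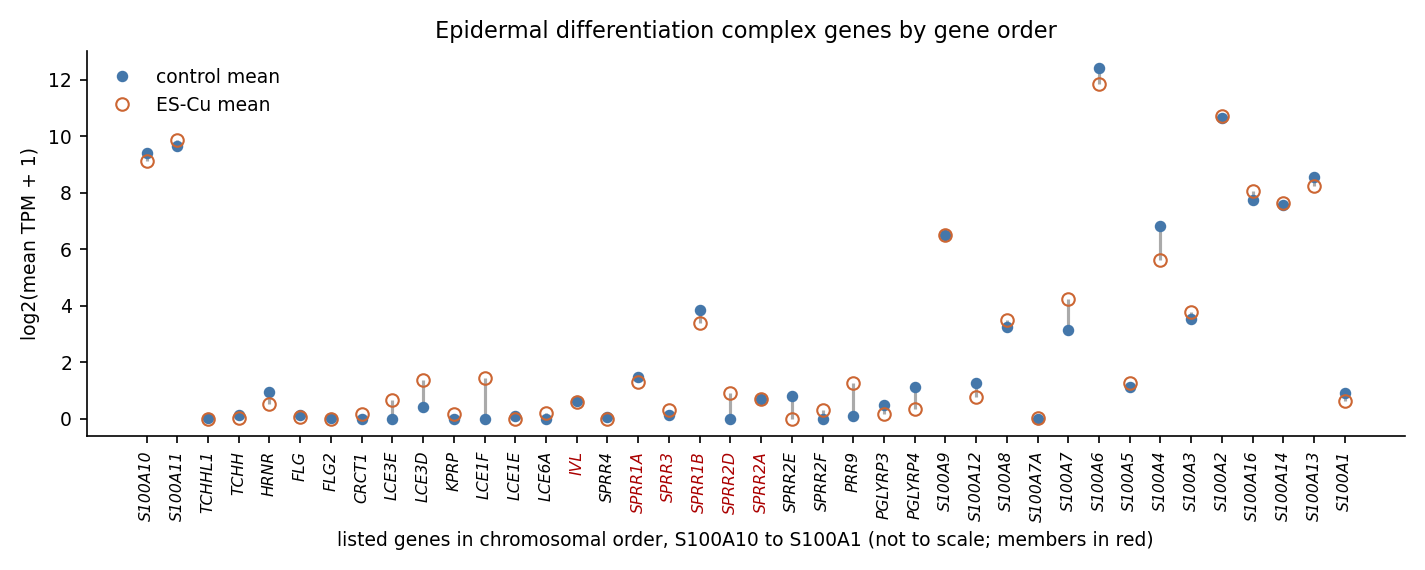
Mean level of each listed gene of the epidermal differentiation complex in the order of the chromosome (not to scale), as log2(mean TPM + 1), with control means as filled and ES-Cu means as open circles and the 6 genes of this description that lie there in red. The high levels belong to S100 genes at both ends, and the genes between those ends, SPRR1B apart, average under 2 TPM.

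Several other components of the envelope were more abundant than most of these genes. Of 54 further envelope genes listed, 31 were in the table and 11 tested, and 5 fell and 2 rose (median log2 fold change -0.71, -0.16 and -0.16). Among all tested genes, 31.2% fell and 13.5% rose, the shares to set beside this list and those that follow. Genes named from the lists were ranked on the deposited values, which favours those that fell. PPL, periplakin, and EVPL, envoplakin, are plakins that form the first scaffold of the envelope beneath the membrane. PPL fell from 65.4 ± 1.60 to 22 ± 0.854 TPM (log2 fold change -1.53, -0.99 and -1.16) and EVPL from 14.4 ± 0.387 to 7.67 ± 0.875 TPM (-0.83, -0.33 and -0.29). CALML3, a calmodulin-like protein of epithelia, fell from 38.6 ± 1.81 to 16.2 ± 1.11 TPM (-1.20, -0.67 and -0.79). PI3, elafin, an elastase inhibitor cross-linked into the envelope, rose from 4.16 ± 1.59 to 8.74 ± 0.971 TPM (0.96, 1.43 and 1.54). ANXA1, the other gene of this list that rose, went from 950 ± 28.8 to 1496 ± 52.2 TPM (0.65, 1.21 and 0.59).

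Proteases and inhibitors of the upper epidermis numbered 35 listed, 33 in the table and 28 tested, of which 5 fell and 3 rose (median log2 fold change -0.33, 0.18 and -0.09, so that its sign turned with the scaling). Of all tested genes, 31.2% fell and 13.5% rose. ST14, matriptase, a membrane serine protease, fell from 83.1 ± 3.58 to 36.7 ± 1.14 TPM (log2 fold change -1.16, -0.61 and -0.83). CTSH (-1.05, -0.51 and -0.68) and BLMH (-1.10, -0.60 and -0.55), cysteine proteases, fell. SERPINB2, a serpin found in differentiating keratinocytes and induced by many stresses, was at 0.11, 0.23 and 0.11 TPM in the controls and rose to 6.45, 8.81 and 9.59 TPM (3.0, 3.28 and 3.30). For the synthesis and processing of barrier lipids, 31 genes were listed, 30 in the table and 22 tested, and 5 fell and 3 rose (median log2 fold change -0.37, 0.08 and 0.11, above 0 under both other scalings). SPTLC3, a subunit of serine palmitoyltransferase, fell from 5.81 ± 0.607 to 0.893 ± 0.297 TPM (-1.85, -1.48 and -1.29). SMPD1, acid sphingomyelinase (-1.10, -0.59 and -0.58), and PLD2, a phospholipase (-1.21, -0.70 and -0.69), fell. ABHD5, a lipase co-activator needed for the skin barrier, rose from 12.0 ± 1.97 to 35.5 ± 1.41 TPM (1.51, 2.03 and 1.96).

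Suprabasal keratins and desmosomal or junctional genes numbered 24 listed, 22 in the table and 13 tested, of which 4 fell and 3 rose (median log2 fold change -0.41, 0.12 and -0.18, so that its sign turned with the scaling). These counts stand beside 31.2% and 13.5% of all tested genes. KRT80, a keratin of differentiating epithelia, fell from 121 ± 0.976 to 41.4 ± 2.84 TPM (log2 fold change -1.52, -0.97 and -1.24), and CDH1, E-cadherin, from 173 ± 2.33 to 71.3 ± 3.01 TPM (-1.27, -0.72 and -1.03). PKP1 (-1.02, -0.57 and -0.39) and PKP3 (-1.18, -0.63 and -0.84), plakophilins of the desmosomal plaque, fell. The ranking on deposited values named none of the 3 genes of this list that rose. Among 19 basal layer genes listed and in the table, 18 were tested, and 7 fell and 7 rose (median log2 fold change -0.27, 0.23 and -0.12, again with both signs). TP63, the transcription factor that maintains basal keratinocytes, fell from 86.8 ± 1.34 to 24.5 ± 0.922 TPM (-1.78, -1.24 and -1.43). CDH3, P-cadherin (-1.32, -0.77 and -1.05), and the basal keratin KRT15 (-1.09, -0.56 and -0.69) fell, while ITGA2, a collagen-binding integrin, rose from 16.4 ± 0.836 to 44.3 ± 3.36 TPM (1.38, 1.92 and 1.79). Of the 7 basal layer genes that rose, the ranking named ITGA2 alone.

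Regulators of keratinocyte differentiation numbered 51, all in the table, with 43 tested, of which 11 fell and 10 rose (median log2 fold change -0.24, 0.31 and 0.10, above 0 under both other scalings). The shares of all tested genes were 31.2% and 13.5%. OVOL1, a transcription factor of the switch from growth to differentiation, rose from 4.74 ± 0.350 to 16.5 ± 1.42 TPM (log2 fold change 1.61, 2.10 and 2.15). The AP-1 subunit JUN rose from 36.0 ± 0.461 to 242 ± 5.36 TPM (2.72, 3.26 and 2.98) and FOSL1, another, from 123 ± 3.23 to 558 ± 25.2 TPM (2.17, 2.72 and 2.33). ELF3, an epithelial ETS factor that is known to bind SPRR promoters, fell from 62.8 ± 2.99 to 16.7 ± 2.21 TPM (-1.85, -1.32 and -1.48).

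**Figure D5:**
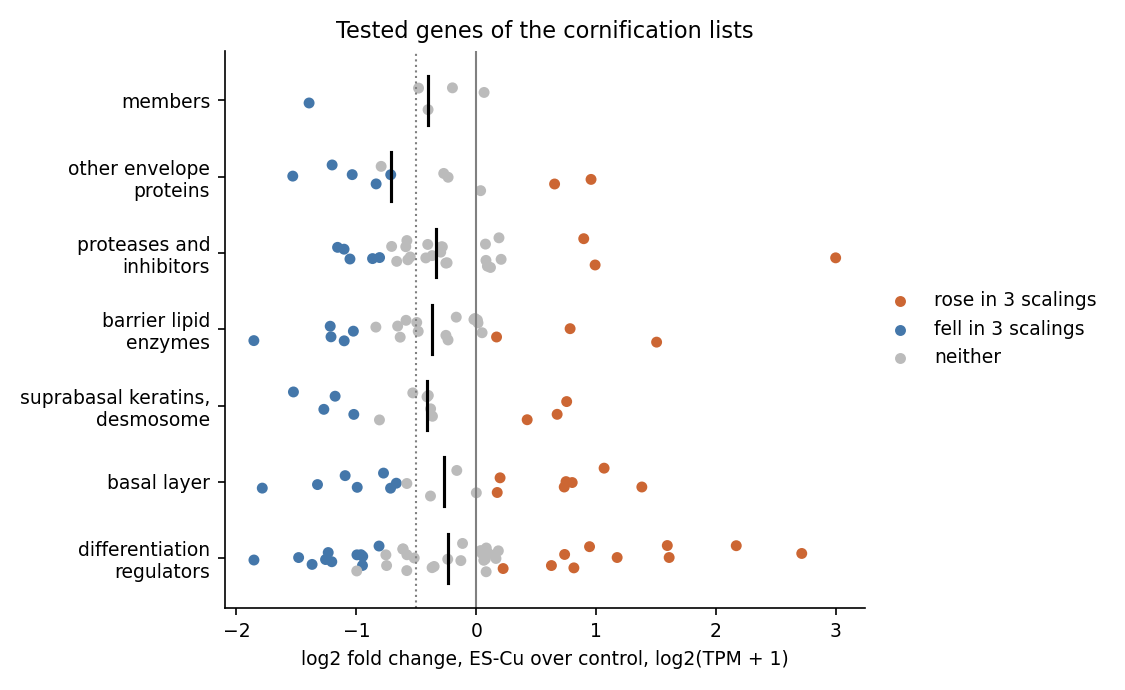
Log2 fold change (ES-Cu over control, on log2(TPM + 1)) of each tested gene in 7 gene lists, coloured by whether it rose or fell in 3 scalings, with a black bar at the list median. The dotted line is the median of all tested genes (-0.50). Every list holds genes on both sides of 0.

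The 10 markers of squamous epithelium were all in the table and tested, and 3 rose (SFN, SERPINB5 and KRT6A) and 1 fell (TP63, given above). Beside them, 13.5% of all tested genes rose and 31.2% fell. In the deposited values 5 were called lower (TP63, DSC3, DSG3, KRT17 and PERP), and the median log2 fold change of the 10 changed sign with the scaling (-0.29, 0.22 and 0.03). Their summed level was 2309 to 2411 TPM in the controls and 2802 to 2866 TPM in ES-Cu, and the gain of SFN was larger than that of the sum. The basal keratin KRT5 averaged 853 TPM in both groups, KRT14 averaged 4.73 and 4.19 TPM, and SFN, the 14-3-3 protein of epithelia, rose from 640 ± 31.4 to 1233 ± 19.1 TPM. SERPINB5, maspin, rose from 32.1 ± 1.75 to 64.8 ± 2.17 TPM. Markers of other cell types moved with the groups as well. The 10 simple epithelial markers summed to 3055 to 3091 and 2575 to 2683 TPM, mostly KRT8 and KRT18. Of 7 tested, 3 fell and 1 rose, namely MUC1 (log2 fold change -2.11, -1.60 and -1.61), AGR2 (-1.91, -1.49 and -1.30), KRT7 (-1.08, -0.58 and -0.54) and CLDN4 (0.34, 0.89 and 0.52). The 8 fibroblast markers in the table summed to 22.4 to 25.7 and 7.03 to 8.44 TPM, mostly TWIST1 and COL1A1, with FAP and COL3A1 at 0 in most libraries. The 6 immune markers summed to 60.6 to 67.4 and 49.5 to 54.6 TPM, nearly all of it CD68, with PTPRC at or below 0.04 TPM. The 6 endothelial markers summed to 7.45 to 7.83 and 1.55 to 2.36 TPM, mostly CDH5. Their part in the results for the envelope genes was not tested. All libraries came from the CAL-27 line, so these genes need not mark cells of another type. In bulk libraries, fewer cells in a given state and less RNA per cell cannot be told apart.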

How the data were processed

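The 6 CAL-27 libraries were read from a single end over 50 bases on the BGISEQ-500, per the labels' protocols. The values are TPM made by the authors, as deposited. HISAT and Bowtie2 are named without versions in the submitters' processing notes. No quantification tool is given in the sources used here. A mouse build, GRCm38.p6, is named there too, although the genes are human: RefSeq holds 16753 of the 16809 Entrez identifiers. A value of 0 is called listed at 0.

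The test was limma 3.58.1 (R 4.3.3) on log2(TPM + 1) for genes averaging 1 TPM or more, two-sided, with its intensity trend and no replicate block. P-values were adjusted after Benjamini and Hochberg over 11927 genes, with a threshold of 0.05. All adjusted p-values come from limma. Sums and shares were compared with exact two-sided permutation tests over libraries. TPM sums to a fixed total, so the limma fit over all libraries was repeated after median-of-ratios scaling and quantile normalization. The sum of the members and the permutation tests were not repeated under these scalings. Pseudocounts of 0.1 and 0.5, filters of 0 and 5 TPM, a table without its 20 highest genes, limma without the trend, the replicate number as a block and single libraries left out were also tried.

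The members and lists were chosen with earlier results of these data known. All 10 members are named. From each other list, and from the genes between S100A10 and S100A1, the rule took up to 4 genes with the largest log2 fold change among those with an adjusted p under 0.05 and at least 5 TPM in a group. Ranks were taken in either direction on the deposited values, where the median tested gene stood at -0.50, so the rule favoured genes that fell. Genes named outside this rule, given with values for a count or a neighbour, were chosen after their values were seen. The code was tested on simulated data.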

Additional observations from a re-analysis of the deposited data

How the results depend on the processing

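The median gene moved with the scaling, and most counts moved with it. Genes called higher and lower were 1628 and 8351 in the deposited values, 4532 and 4266 after median-of-ratios scaling, and 3749 and 4756 after quantile normalization. In the gene lists, 28 and 80 became 66 and 44 and then 57 and 52, and 46 were higher with the 20 highest genes removed. Of the members, 0 and 4 became 1 and 1 after median-of-ratios scaling. The number called lower was 1 after quantile normalization and with the 20 highest genes removed, 2 with a filter of 5 TPM, which drops CNFN and TGM1, and 2 to 5 when single libraries were left out (2 without control 1 or control 2), and without the filter 1 was called higher (SPRR2D). Settings chosen after seeing the data gave 1 and 1 with copies summed and median-of-ratios scaling, and 1 lower with copies summed and quantile normalization. Without the filter they gave 3 and 1 members, and 75 and 47 list genes, after median-of-ratios scaling. With quantile normalization they gave 2 and 1 members, and 65 and 51 list genes. Without the filter, SPRR2D was called higher in all 3 scalings (0.89, 1.02 and 1.11, limma adjusted p = 0.0018, 0.0023 and 0.0026). SBSN was called higher after median-of-ratios scaling (0.20, limma adjusted p = 0.021) and quantile normalization (0.27, limma adjusted p = 0.0071). CSTA was the remaining member called higher, after median-of-ratios scaling. SPRR2D and SBSN averaged under 1 TPM, and SPRR2D shares sequence with other copies. The difference in the sum of the members, -20.5 TPM, was -9.80 with the 20 highest genes removed and -7.63 without CSTA. Signs turned for CSTA (0.35 after median-of-ratios scaling, 0.084 after quantile normalization, with or without the filter), SPRR1B (0.030 and 0.047), TGM1 (0.087 after quantile normalization) and SPRR1A (-0.56 to 0.43 when single libraries were left out). The cause was not tested beyond these settings. Limma no longer called SPRR1B without the filter (adjusted p = 0.077) or without the trend (0.065). It lost SPRR1B (0.117), TGM1 (0.080) and CSTA (0.487) with the 20 highest genes removed. Pseudocounts of 0.1 and 0.5 kept direction and side of the threshold for 30 of 30 named genes. So did the replicate block, under which 1614 genes were called higher and 8343 lower, with 0 and 4 members. Libraries with the same number did not deviate together (r = 0.021, -0.034 and 0.011). Shared cultures or days with little common effect would not be seen this way, so whether the numbers pair libraries is not known. Depth is unknown, which limits every value under 1 TPM most.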

Other observations

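Several further genes of the epidermal differentiation complex under the filter were listed at 0 in every control and above 0 in every ES-Cu library. They were chosen after their values were seen, and 2.27% of the 4882 genes with a mean under 1 TPM showed this order. LCE1F, a late cornified envelope gene, stood at 1.72, 1.98 and 1.36 TPM in ES-Cu. LCE3E stood at 0.89, 0.43 and 0.44 TPM and KPRP, keratinocyte proline-rich protein, at 0.14, 0.13 and 0.07 TPM. PRR9 was at 0, 0.20 and 0 TPM in the controls and at 2.0, 1.41 and 0.82 TPM with ES-Cu, and LCE3D at 1.03, 0 and 0 against 1.31, 1.70 and 1.75 TPM. Others in the same cluster, among them FLG, TCHH and PGLYRP3, were lower in every ES-Cu library than in any control. Groups also did not overlap for 84.3% of all tested genes, and the share among untested genes was not computed. HRNR, hornerin, was at 0.99, 0.91 and 0.93 TPM against 0.34, 0.43 and 0.51 TPM, and PGLYRP4, a peptidoglycan recognition protein, at 1.39, 0.91 and 1.26 TPM against 0.22, 0.11 and 0.46 TPM. None of these genes entered the test, and sequence shared between LCE copies was not computed.

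Among the regulators, PRDM1, the repressor BLIMP1, rose from 0.92 ± 0.226 to 3.33 ± 0.410 TPM. KLF4, a factor of barrier formation, was at 11.5 ± 0.435 and 10.5 ± 0.525 TPM, and its log2 fold change changed sign with the scaling (-0.11, 0.40 and 0.43, with limma adjusted p of 0.183, 6.43e-04 and 3.97e-04).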
